A study of Mus musculus with 12 samples.

Results

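The Fc receptor family was taken as 9 genes, chosen by name from the annotation on the arrays: Fcgr1, Fcgr2b, Fcgr3, Fcgr4, Fcer1g, Fcer1a, Fcer2a, Fcgrt and Fcrls. Each had 1 probe, so 9 of 39429 probes and 9 of 27274 named genes belong to it, and 8 of the 16403 genes tested. Between tumor and normal macrophages, 0 of the 8 passed limma's test at an adjusted p under 0.05, where 0.854% of all genes tested did. The 4 genes for the IgG-binding receptors of phagocytes had positive differences of 0.54 to 1.05 on the log2 scale, and their shared signalling chain Fcer1g had a difference of -0.0032.

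Fc receptors bind the constant part of antibodies and let phagocytes take up coated particles. In the mouse, the receptors encoded by Fcgr1, Fcgr3 and Fcgr4 signal through the common gamma chain, the product of Fcer1g, which recruits the kinase Syk once Src family kinases have phosphorylated it. Fcgr2b encodes the inhibitory IgG receptor, which recruits the phosphatase SHIP-1 and dampens those signals, so the balance of activating and inhibitory receptors sets how a macrophage responds to immune complexes.

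Macrophages had been sorted from pancreatic tumor tissue and from normal pancreas, with 6 arrays per group, and their RNA was amplified and hybridized in a single colour. All mice were labelled C57/B6, female and 4 to 5 months old, with no genotype provided. The series design names wild-type, KPC and FLT3-CRE/LSL-YFP mice, and the treatment protocol speaks of implanted tumors, while the labels do not say which of these gave any sample. KPC mice carry oncogenic alleles switched on in pancreatic epithelium, and FLT3-CRE/LSL-YFP marks cells descended from Flt3-expressing blood progenitors. The sorting markers are not given in the sources used here. Tumor replicates 4 and 6 carry 1 sample name, as do normal replicates 2 and 3, so each pair of arrays was averaged, which left 5 samples per group. The labels do not say that samples came from separate animals, and p-values then measure only the spread between these samples.

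Arrays had 39.3% to 58.8% of their probes well above background and 75th percentiles of signal of 398 to 1547. Of 12 macrophage markers 12 were tested and 0 passed, with a median log2 difference of -0.20. The median over all genes was -0.0044, and 49.6% of all genes had positive differences. Differences were negative in 8 of the markers and positive in 4. Adgre1 had the smallest p, with a log2 difference of -0.80 ± 0.24 (SE; limma, adjusted p = 0.195). Levels below are log2 signals minus the 75th percentile of the array. They compare samples for 1 probe and never 2 genes. Samples are listed as tumor replicates 1, 2, 3, 4 with 6, and 5, against normal replicates 1, 2 with 3, 4, 5 and 6. Arrays of 1 sample name differed by 0.0075 to 0.30 in the 7 members that were above background on all 12 arrays. The sample of normal replicates 2 and 3 was the dimmest, with unscaled Fcer1g signals of 19578 and 19486 against 54924 to 74559 on other arrays. Among normal samples its level was lowest for Fcgr1 (1.28), Fcgr2b (3.28), Fcer1g (5.56), Fcgrt (0.32), Fcrls (3.59) and Fcer2a (-3.61, below background). For Fcgr3 and Fcgr4 it was not lowest. Its level was also lowest for the signalling genes Prkcd (1.72), Rac2 (1.99) and Plcg2 (1.68). It was highest for Cela1 of acinar cells, at 9.04. The part of array brightness in the group differences was not tested.

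Fcgr1 encodes the high-affinity IgG receptor. Its level was 2.46, 3.14, 3.06, 2.30 and 2.49 in tumor samples, against 2.31, 1.28, 2.76, 2.24 and 1.98 in normal samples. Tumor replicates 2 and 3 lay above every normal sample and normal replicates 2 with 3 stood lowest, while the other samples overlapped. The log2 difference was 0.58 ± 0.30 (SE, 5 samples per group; limma, adjusted p = 0.460), with a 95% interval of -0.10 to 1.25. Without normal replicates 2 and 3 it was 0.37, over 1.5 times smaller.

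Fcgr3 encodes the low-affinity activating IgG receptor that is common to macrophages, neutrophils and NK cells. Its level was 5.36, 5.74, 5.19, 5.15 and 5.13 in tumor samples, against 5.08, 4.57, 4.63, 5.02 and 4.54 in normal samples. Every tumor sample lay above every normal sample, the nearest being tumor replicate 5 at 5.13 and normal replicate 1 at 5.08. The log2 difference was 0.54 ± 0.22 (SE; limma, adjusted p = 0.326), with a 95% interval of 0.06 to 1.02. Fcgr3 was the only member of the 8 whose groups did not overlap. Across all genes tested, the groups did not overlap in 3.32% of genes, and in 1.76% with tumor higher.

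The 60-base Fcgr3 probe reads chr1:172984129-172984188 on the minus strand of mm9, and it is shown because the mouse Fcgr2b and Fcgr3 coding sequences are known to be nearly alike in their extracellular part:
Fcgr3 probe: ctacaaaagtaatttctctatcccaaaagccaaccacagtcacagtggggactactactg
How far this probe also binds Fcgr2b transcripts was not tested, and the 2 genes' differences are uncertain to that extent. The annotation on the arrays gives no exon for it.

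Fcgr4 encodes an activating receptor for IgG2 subclasses on myeloid cells. Its level was 3.57, 3.93, 3.46, 2.65 and 3.23 in tumor samples, against 2.07, 2.02, 3.38, 2.55 and 1.57 in normal samples. Normal replicate 4 lay among the tumor samples, and the other 4 normal samples lay below every tumor sample. The log2 difference was 1.05 ± 0.36 (SE; limma, adjusted p = 0.251), a fold of 2.07 with a 95% interval of 1.19 to 3.60.

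Fcgr2b, the inhibitory receptor, was read by 10 spots per array, whose log2 signals had an SD of 0.037 to 0.085 within an array. Its level was 4.75, 5.31, 4.56, 4.64 and 4.68 in tumor samples, against 4.78, 3.28, 3.76, 3.94 and 3.90 in normal samples. Of the normal samples 4 lay below every tumor sample, and normal replicate 1 lay among the tumor samples. The log2 difference was 0.85 ± 0.29 (SE; limma, adjusted p = 0.246), a fold of 1.81 with a 95% interval of 1.16 to 2.82.

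Fcer1g encodes the gamma chain that the activating receptors share. Its level was 5.78, 5.96, 5.59, 5.78 and 5.86 in tumor samples, against 5.99, 5.56, 5.97, 5.87 and 5.59 in normal samples. The groups lay over each other, and their SDs of 0.14 in tumor and 0.21 in normal samples were the smallest and next smallest of any tested member in either group. The log2 difference was -0.0032 ± 0.19 (SE; limma, adjusted p = 0.997), and the 95% interval of its fold ran from 0.745 to 1.34. Its sign turned under some settings, at 0.16 after quantile normalization and 0.13 after normexp background correction, and stayed negative, at -0.014, when scaled on the median of probes above background.

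**Figure D1:**
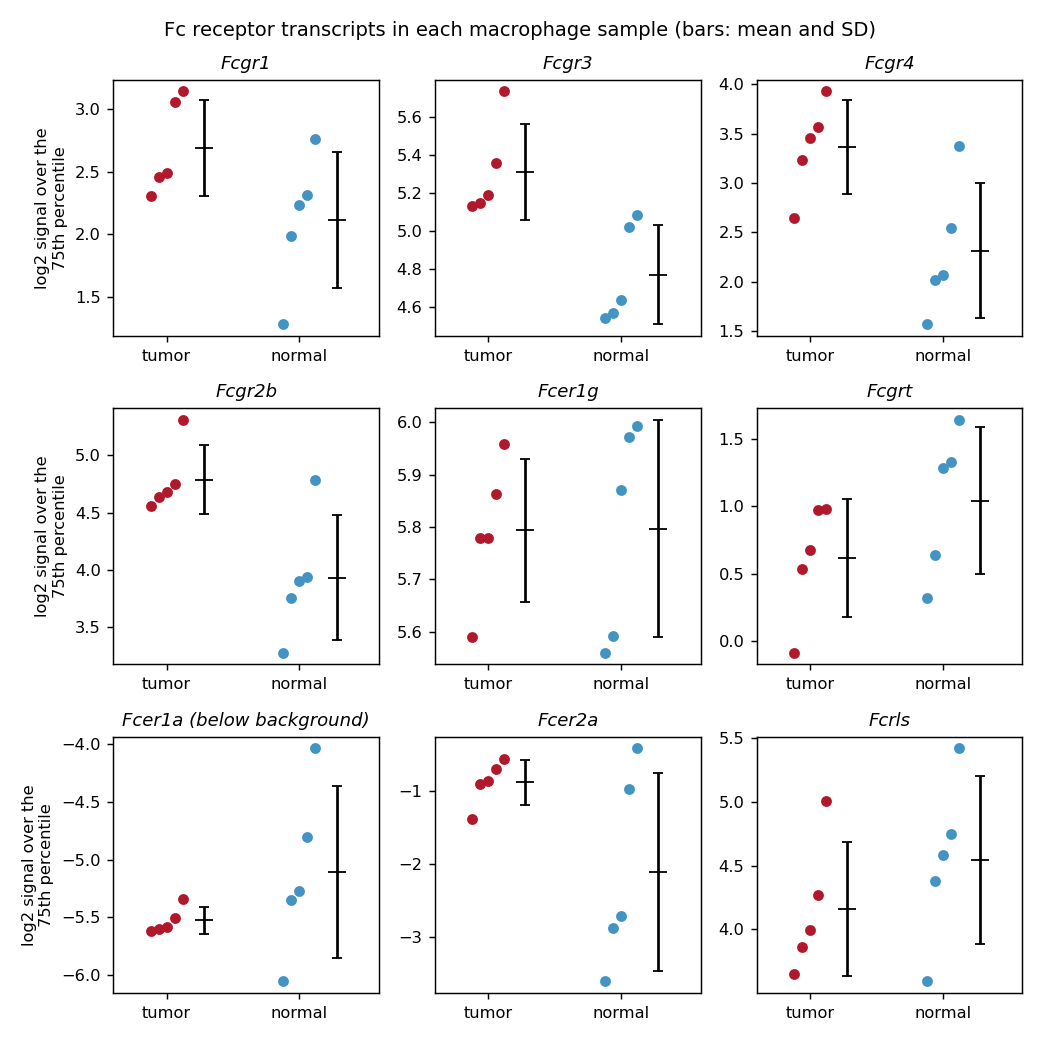
Level of each Fc receptor gene in the macrophage samples of tumor (left, red) and normal pancreas (right, blue), as log2 signal over the array's 75th percentile, with a separate axis range in each panel. Points are the 5 samples of a group and bars give the mean and SD; the groups of Fcgr3 do not overlap, those of Fcer1g lie over each other, and Fcer1a was not well above background on any array.

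Fcgr2b, Fcgr4 and Fcgr3, 3 of the 8 members tested, had an unadjusted limma p under 0.05 and were higher in tumor samples, as were 6.67% of all genes. With 5 positive and 3 negative differences, the members' median was 0.56, beside -0.0044 over all genes. Each of the 3 slides, scanned separately, held 2 tumor and 2 normal arrays. Within slides 1, 2 and 3, the log2 difference was 1.01, 0.66 and 0.28 for Fcgr1. It was 0.77, 0.51 and 0.37 for Fcgr3. Fcgr4 gave 1.70, 0.37 and 0.88, and Fcgr2b gave 1.03, 1.04 and 0.75. All 4 IgG receptor genes were thus positive on each slide, though slides share the averaged samples and no gene passed within a slide. With the slide in the model and the sample name as a random block, Fcgr1 had 0.58, Fcgr3 0.56, Fcgr4 1.04 and Fcgr2b 0.86, and limma called 0 members.

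**Figure D2:**
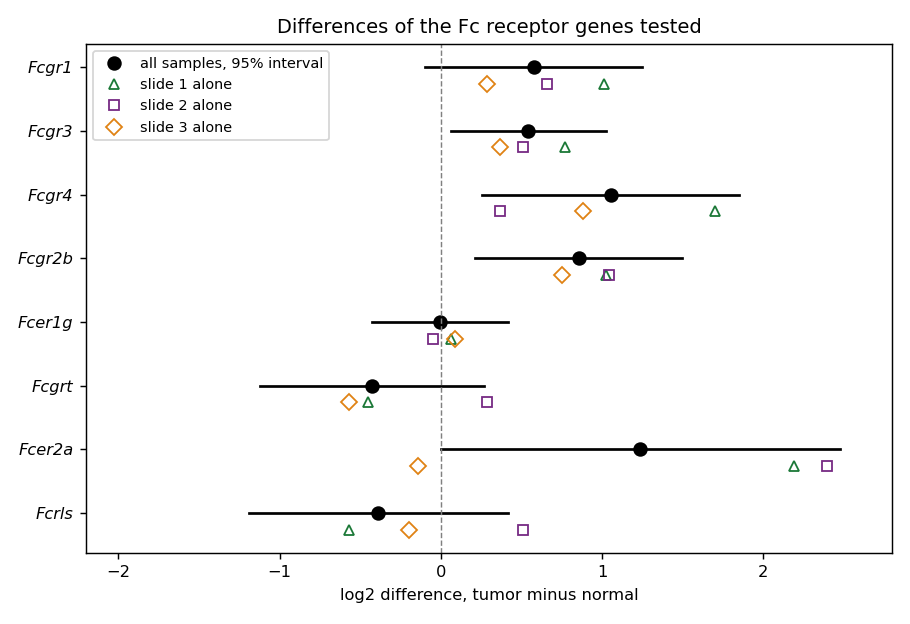
Log2 difference, tumor minus normal, of the 8 tested Fc receptor genes (filled points) with the 95% interval from limma, and the difference within each slide (open symbols). Fcgr1, Fcgr3, Fcgr4 and Fcgr2b are positive on every slide, while Fcer2a is at 2.19 and 2.39 on slides 1 and 2 and at -0.14 on slide 3.

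The log2 ratio of each activating receptor to Fcgr2b was taken within each sample, which removes the array's scale. A ratio holds 2 probes, so its level has no meaning across genes and only its change between samples was read. Fcgr3 over Fcgr2b was 0.61, 0.42, 0.63, 0.51 and 0.45 in tumor samples, against 0.30, 1.29, 0.88, 1.08 and 0.64 in normal samples. The tumor samples lay within a narrow band inside the range of the normal samples, with an SD of 0.091 in tumor and 0.385 in normal. The difference was -0.31 ± 0.18 (SE). Fcgr1 over Fcgr2b was -2.29, -2.17, -1.50, -2.33 and -2.18 in tumor samples, against -2.47, -1.99, -0.99, -1.71 and -1.92 in normal samples, a difference of -0.28 ± 0.28 (SE). Fcgr4 over Fcgr2b was -1.18, -1.38, -1.10, -1.99 and -1.44 in tumor samples, against -2.71, -1.26, -0.38, -1.39 and -2.33 in normal samples, a difference of 0.20 ± 0.44 (SE). The groups overlapped in all 3 ratios, and no test was made of them. Fcgr4 over Fcgr2b was 0.67 on slide 1 and -0.67 on slide 2, and -0.077 without normal replicate 1, 0.51 without normal replicate 4, 0.018 without normal replicate 6, 0.12 without tumor replicate 3 and 0.34 without tumor replicates 4 and 6. Fcgr1 over Fcgr2b was -0.074 without normal replicate 4, -0.44 without normal replicate 1 and -0.43 without tumor replicate 3, and -0.018 on slide 1. Fcgr3 over Fcgr2b was -0.20 without normal replicates 2 and 3.

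**Figure D3:**
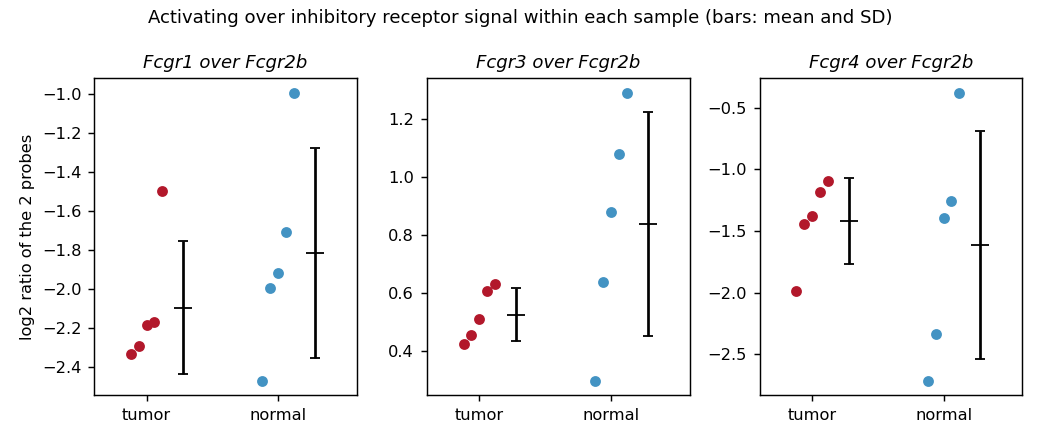
Log2 ratio of Fcgr1, Fcgr3 and Fcgr4 to Fcgr2b in each tumor (left, red) and normal (right, blue) macrophage sample, with bars for the mean and SD of 5 samples. Groups overlap in each panel, and the tumor samples of Fcgr3 over Fcgr2b span 0.42 to 0.63.

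The promoters of the 4 IgG receptor genes are shown as the 250 bases before the RefSeq gene start on GRCm38.p6, because these genes had differences of the same sign. Capitals mark matches on either strand to GAGGAA (reverse complement TTCCTC), a form of the sequence bound by the myeloid factor PU.1, whose other forms were not searched:
Fcgr1 chr3:96293970-96294219, minus strand: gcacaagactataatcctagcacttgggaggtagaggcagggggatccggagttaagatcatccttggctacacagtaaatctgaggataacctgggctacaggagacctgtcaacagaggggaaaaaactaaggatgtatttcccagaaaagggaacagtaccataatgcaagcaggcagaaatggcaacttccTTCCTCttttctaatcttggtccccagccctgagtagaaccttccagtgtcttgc
Fcgr3 chr1:171059404-171059653, minus strand: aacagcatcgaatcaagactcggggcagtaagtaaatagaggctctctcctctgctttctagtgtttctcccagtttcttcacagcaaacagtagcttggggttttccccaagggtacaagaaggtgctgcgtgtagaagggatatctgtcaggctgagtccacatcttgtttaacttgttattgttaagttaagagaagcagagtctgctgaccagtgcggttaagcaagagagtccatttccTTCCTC
Fcgr4 chr1:171018676-171018925, plus strand: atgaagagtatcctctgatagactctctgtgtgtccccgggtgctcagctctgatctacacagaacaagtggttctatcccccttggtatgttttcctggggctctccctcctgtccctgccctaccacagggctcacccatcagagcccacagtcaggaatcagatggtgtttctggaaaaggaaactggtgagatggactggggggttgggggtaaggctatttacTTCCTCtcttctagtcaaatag
Fcgr2b chr1:170976072-170976321, minus strand: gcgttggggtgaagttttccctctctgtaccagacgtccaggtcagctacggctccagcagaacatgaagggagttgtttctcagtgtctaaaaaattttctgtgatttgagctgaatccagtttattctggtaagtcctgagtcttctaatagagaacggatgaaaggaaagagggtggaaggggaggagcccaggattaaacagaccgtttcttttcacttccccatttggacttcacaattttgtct
GAGGAA stood in 6 of the 12 promoters that RefSeq lists for the 9 members, of which those of Fcgr3 overlap and share the same match. It began at -55 in Fcgr1, at -6 or -15 in Fcgr3 by which of its gene starts is used, at -22 in Fcgr4, at -144 in Fcrls and at -216 in Fcer1a, counted back from the gene start on the gene's strand. Fcrls had a negative difference and Fcer1a was not above background, so the letters were not particular to the IgG receptor genes. Fcgr2b, Fcer1g, Fcgrt and Fcer2a had none in these windows. The same letters stood in 23.3% of 32851 promoters of this length. A match is a description of the letters, and no binding was measured. Spi1, which encodes PU.1, had a log2 difference of 0.29 (limma, adjusted p = 0.641); it was named here after its value was seen.

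Fcer2a encodes CD23, the low-affinity IgE receptor, which is best known from B cells and from macrophages exposed to interleukin 4. Its level was -1.38, -0.57, -0.70, -0.91 and -0.86 in tumor samples, against -2.71, -3.61, -2.88, -0.97 and -0.42 in normal samples. Normal replicate 5 lay among the tumor samples and normal replicate 6 above them, both on slide 3, and the other 3 normal samples lay below every tumor sample. The probe was above background on 6 of 6 tumor arrays and 2 of 6 normal arrays, so it was tested through the tumor arrays alone. Those 3 lower normal samples were all below background, and their values are not measured levels. The log2 difference was 1.24 ± 0.56 (SE; limma, adjusted p = 0.386), and it was 0.24 after normexp background correction and -0.14 within slide 3. Of 8 B cell markers 6 were tested and 0 passed. All 6 had negative differences, and their summed share of signal was 0.0351% to 0.0722% in tumor and 0.0234% to 0.0586% in normal samples. The share ranges overlapped. A share is weighted to bright probes, and Cd22 had the list's highest mean level, at 5.46 in tumor and 5.55 in normal samples. The part of B cells in the Fcer2a values was not tested.

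Fcer1a encodes the IgE-binding chain of the high-affinity IgE receptor of mast cells and basophils. Its probe was not well above background on any of the 12 arrays, with levels of -5.62 to -5.34 in tumor and -6.05 to -4.04 in normal samples, and it was not tested. Ms4a2, the beta chain of the same receptor, was not above background on any array either. Of 11 mast cell and basophil markers 4 were tested and 0 passed, and Cpa3, Tpsab1, Prss34, Gata2 and Cd200r3 were not above background on any array.

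Fcgrt encodes FcRn, which recycles IgG inside cells and is distinct from the surface receptors. Its level was 0.98, -0.09, 0.67, 0.97 and 0.53 in tumor samples, against 1.64, 0.32, 0.64, 1.32 and 1.28 in normal samples. Tumor replicate 2 stood lowest and the groups overlapped, with a log2 difference of -0.43 ± 0.32 (SE; limma, adjusted p = 0.599). Fcrls, an Fc receptor-like gene known in the mouse from microglia, had levels of 4.27, 3.65, 3.86, 5.01 and 4.00 in tumor samples, against 5.42, 3.59, 4.38, 4.58 and 4.75 in normal samples. Its difference was -0.39 ± 0.36 (SE; limma, adjusted p = 0.685). Of 8 microglia markers 7 were tested, all 7 with negative differences and 0 past the threshold; Gpr34, a lysophospholipid receptor, had -1.82 ± 0.48 (SE; limma, adjusted p = 0.135). Within slides 1, 2 and 3 the difference was -0.46, 0.29 and -0.57 for Fcgrt and -0.57, 0.51 and -0.20 for Fcrls. Without tumor replicate 2 or normal replicate 1, Fcgrt had -0.25 and -0.28, and Fcrls -0.26 and -0.17. Fcrls had -0.60 without tumor replicates 4 and 6 and -0.62 without normal replicates 2 and 3. Over all fits with a sample left out, Fcgrt ran from -0.61 to -0.25.

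Of other Fc receptors and partners, 6 of 12 genes were tested and 0 passed. Fcrl5, an Fc receptor-like gene of B cells, had a log2 difference of 0.44 ± 0.28 (SE; limma, adjusted p = 0.538). Fcgbp, an IgG Fc-binding mucin-like protein, had -0.81 ± 0.73 (SE; limma, adjusted p = 0.671). Fcrlb had -0.39, and Pigr, the epithelial transporter of polymeric antibodies, had -0.10. Among the antibody genes listed as ligands, 1 of 10 was matched and tested: Jchain, the joining chain of polymeric IgM and IgA, had 1.51 ± 0.44 (SE; limma, adjusted p = 0.169).

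Downstream of the activating receptors, 17 of 20 signalling genes were tested, 13 with positive differences, and 1 rose, where 0.341% of all genes were called higher. That gene was Fgr, a Src family kinase of myeloid cells. Its level was -0.14, 0.24, -0.33, -0.74 and 0.56 in tumor samples, against -1.62, -2.69, -2.04, -1.83 and -0.99 in normal samples. Every tumor sample lay above every normal sample, with a log2 difference of 1.75 ± 0.35 (SE; limma, adjusted p = 0.0494). The probe was above background on 4 of 6 normal arrays. The call ended when any sample was left out other than tumor replicates 4 and 6 or normal replicate 6, with a limma adjusted p of 0.0762 to 0.142 and differences of 1.54 to 1.81. After normexp background correction the difference was 1.03. Prkcd, a protein kinase C, had 0.93 ± 0.29 (SE; limma, adjusted p = 0.213), Rac2, a GTPase of the oxidase and of phagocytosis, had 0.82 (adjusted p = 0.213), and Plcg2, a phospholipase C, had 0.82 (adjusted p = 0.325). The groups of Prkcd and Rac2 did not overlap either, as in 1.76% of all genes with tumor higher. The median of the list was 0.43.

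Of the inhibitory signalling genes all 10 were tested, 10 with positive differences, as 49.6% of all genes had, and 0 past the threshold, with a median of 0.25. Dok2, an adaptor that dampens Ras signalling, had 0.81 ± 0.31 and Ubash3b, a tyrosine phosphatase, had 0.89 ± 0.35 (SE; limma, adjusted p = 0.312 and 0.321). Csk, the kinase that restrains Src family kinases, had 0.50, and Cblb, a ubiquitin ligase, had 1.41 ± 0.98 (SE), with its probe above background on 5 of 6 tumor arrays and 1 of 6 normal arrays. All 12 oxidase and phagocytosis genes were tested as well, 12 positive and 0 past the threshold, with a median of 0.38. Myo1g, a myosin of the phagocytic cup, had 0.75, Cyba, an oxidase subunit, 0.35, Coro1a, an actin regulator, 0.45, and Wdfy4 0.36. Of 14 regulators of Fc receptor expression 14 were tested and 0 passed, with a median of 0.33. Il4ra, the interleukin 4 receptor, had 0.78 ± 0.23 (SE; limma, adjusted p = 0.179). Its groups did not overlap, as in 1.76% of all genes with tumor higher. Cebpb, a myeloid transcription factor, had 0.72 ± 0.32 (SE; limma, adjusted p = 0.372). Stat3 had 0.40 and Cebpa 0.36.

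**Figure D4:**
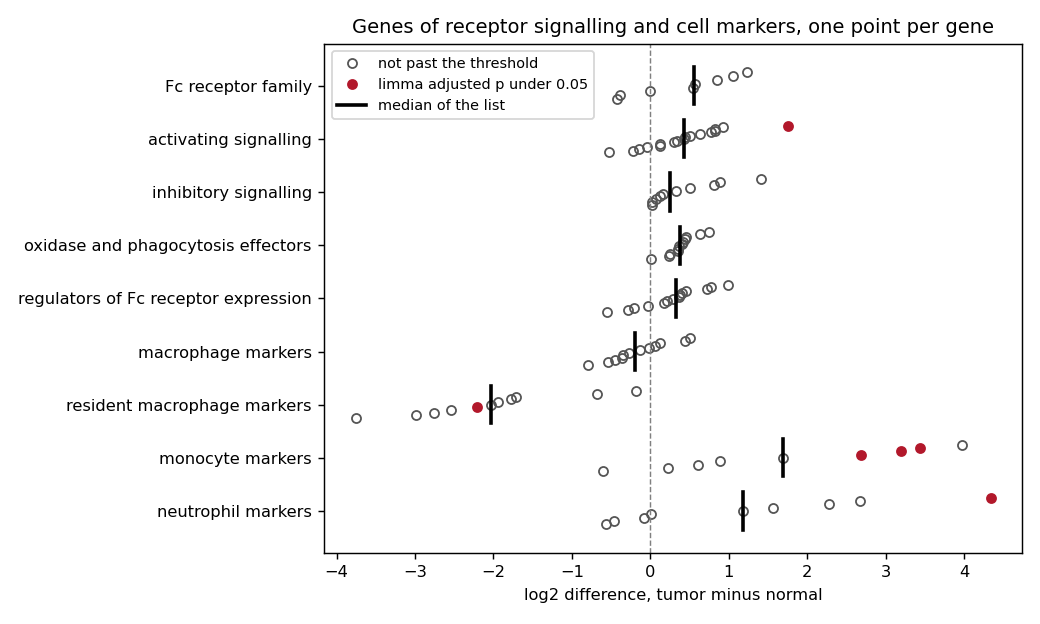
Log2 difference, tumor minus normal, of each tested gene in the Fc receptor family, the receptor signalling lists and the macrophage, monocyte and neutrophil marker lists. Filled red points passed limma's adjusted p under 0.05, open points did not, and the black bar is the median of the list; 10 of 10 inhibitory and 12 of 12 oxidase and phagocytosis genes lie above 0, and 11 of 11 resident macrophage markers below; 49.6% of all genes were above 0, and no inhibitory, oxidase or phagocytosis gene passed.

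Of the marker lists of other cells, those of monocytes, neutrophils, resident macrophages and acinar cells held genes that passed the test. Over all genes tested, 49.6% had positive differences, 0.341% were called higher and 0.512% were called lower. In bulk samples, more cells of a type and more RNA per cell cannot be told apart. Of 9 monocyte markers tested, 8 had positive differences and 3 rose, among them F10, coagulation factor X, by 2.69 ± 0.30 on the log2 scale (SE; limma, adjusted p = 0.00428), and Hp (haptoglobin) with a rise of 3.20 ± 0.43 (SE; limma, adjusted p = 0.00764). The summed share of signal of the list was 0.0630% to 0.107% in tumor and 0.0296% to 0.0423% in normal samples. Of 11 resident macrophage markers, 11 had negative differences and Igf1, a growth factor, fell by 2.21 ± 0.24 on the log2 scale (SE; limma, adjusted p = 0.00428).

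Neutrophils also carry Fcgr3 and Fcgr4. Of 9 neutrophil markers tested, 6 had positive differences and 1 rose, where 0.341% of all genes were called higher. That gene was Retnlg, a resistin family member made by neutrophils, which rose by 4.34 ± 0.78 on the log2 scale (SE; limma, adjusted p = 0.0338). Its probe was above background on 6 of 6 tumor arrays but 2 of 6 normal arrays, so it was tested through the tumor arrays alone, and the difference was 2.04 after normexp background correction. That call ended without any 1 of tumor replicates 1, 2, 3 or 4 with 6, or of normal replicates 2 with 3, 4 or 5, at an adjusted p of 0.0510 to 0.0961. S100a8, a defining marker, stood well above background on 5 of 6 tumor and 0 of 6 normal arrays. Its tumor mean was higher by at least 2.57-fold, but the groups overlapped and it was not called (limma, adjusted p = 0.125). Elane was not above background on any array. S100a9, Cxcr2 and Ltf had log2 differences of 2.28 ± 1.59, 1.57 ± 0.66 and 1.18 ± 0.58 (SE). Their probes were above background on 5, 6 and 4 tumor arrays and on 3, 3 and 1 normal arrays. Ngp, Camp and Mpo had -0.57 ± 0.81, -0.46 ± 0.74 and -0.086 ± 0.80 (SE), above background on 3, 4 and 2 tumor arrays and on 2, 5 and 3 normal arrays. Csf3r, above background on 6 of 6 arrays of each group, had 0.0058. Signs thus differed within the list, but the 3 negative differences were smaller than their SEs and came from probes often below background. The summed share was 0.0205% to 0.0270% in tumor and 0.0127% to 0.0203% in normal samples. A share is weighted to bright probes, and Csf3r had the list's highest mean level, at 4.34 in tumor and 4.33 in normal samples. The share is not a measure of neutrophil content. Of 10 acinar markers 10 were tested and 9 fell, where 0.512% of all genes were called lower, with a summed share of 0.00516% to 0.162% in tumor and 0.398% to 2.34% in normal samples. Of the NK cell, T cell, dendritic cell and epithelial markers, 0 passed. The part of any of these lists in the Fc receptor values was not tested.

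For 5 members the genes with the most similar pattern were taken, by the root mean square difference of centred log2 levels over the 10 samples. Fcgr1 was closest to Trem2, a lipid-sensing receptor of macrophages, at 0.147, where its own root mean square around its mean was 0.509, followed by Hmgxb3 (0.198) and Smim27 (0.209). Fcgr3, with its own at 0.356, was closest to Wfdc17 (0.152), Fis1 (0.154) and Ric8a (0.158). Fcgr2b, with its own at 0.581, was closest to the transcription factor Egr2 (0.216), then Prkcd (0.224) and Acaa1b (0.224). Fcgr4, with its own at 0.745, had no gene nearer than Mrpl18 (0.339), Ctsl, the protease cathepsin L (0.380), and Eci2 (0.391). Fcer1g varied little, at 0.157, and Cdv3, Arhgap45 and Hnrnpf lay at 0.102 to 0.104 from it. These distances describe 10 samples that share arrays and scaling, and carry no test.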

How the data were processed

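Macrophage RNA was measured on 12 single-colour Agilent arrays. Per the file headers, the authors used Feature Extraction 11.5.1.1 on the red channel, and the deposited processed intensity per spot is background-subtracted. The authors also deposited log2 values per probe, with a median of 7.08 on each array; compared with the scanner files, they equal quantile-normalized log2 processed intensities (lowest correlation 0.9999), with genes not centred. Control spots and outlier-flagged spots (0.401%) were left out, log2 processed intensities were averaged per probe, and each array's 75th percentile was subtracted. Kept were probes that in either group stood well above background on 3 or more of 6 arrays, and a gene took its probe with the highest mean. Probes were named through RefSeq accessions, symbols or synonyms, or kept the name in the file. RefSeq promoters of GRCm38.p6 matched all 9 members, and the motifs printed were settled after promoters had been searched.

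The comparison used two-sided limma tests (version 3.58.1, R 4.3.3) with Benjamini-Hochberg adjustment over 16403 genes and a threshold of 0.05. The limma fit was tested on simulated data. Averaging arrays of 1 name left 5 samples per group, and precision is limited by the number of arrays. Where a whole group's arrays left a gene below background, only a bound is given: the "at least" fold sets the bright group's mean against the dim group's mean of the array's lowest signal above background or the probe's own, whichever was higher. A list's summed share is the sum of its genes' signals over that of all genes. The members and lists were chosen with earlier results of these data known. Genes named are all members, the 4 of each list with the smallest p, and the 3 most similar to each of 5 members, of which some are left out here. Alternatives covered background correction, scaling, filters, arrays of 1 name, slide, probe choice, flags, the variance model and leaving out each sample.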

Additional observations from a re-analysis of the deposited data

Results flagged for a closer look

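Among 22 combinations of a group with a member or ratio, 2 held a sample far from the others of its group by Dixon's test, which flags about 1 in 20 by chance. Fcgr2b stood at 5.31 in tumor replicate 2, above the other tumor samples, and Fcgr1 over Fcgr2b stood at -1.50 in tumor replicate 3.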

How the results depend on the processing

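Under 24 alternatives to the fit, limma called 0 Fc receptor genes, and the lowest adjusted p of any was 0.0793 (Fcgr2b, 12 arrays as separate samples). Fcgr1, Fcgr2b, Fcgr3 and Fcgr4 kept positive differences in all 24. The number of genes called was 460 with 12 arrays as separate samples, 236 with a trended and robust variance model, 0 within each slide, and 59 to 197 when a sample was left out, against 140 reported. It was 84, 88 and 59 without normal replicate 1, 4 or 5, and 78 and 71 without tumor replicate 1 or 2. Fcer1g turned positive with normexp (0.13), quantile normalization (0.16), the authors' log2 table (0.15), 12 arrays as separate samples (0.034), slide 1 (0.064) and slide 3 (0.087), and ran from -0.062 to 0.048 when a sample was left out. Fcgrt and Fcrls turned positive on slide 2 (0.29 and 0.51), Fcer2a turned negative on slide 3 (-0.14), and Fcgr4 over Fcgr2b was -0.67 on slide 2. With no filter on dim probes Fcer1a was tested and not called (limma, adjusted p = 0.508), and the median of all genes moved to -0.26; other settings moved that median by under 0.1. Of list genes named above that passed, limma kept the call of Fgr in 12 of the 24 alternatives, Retnlg in 14 and F10, Hp and Igf1 in 21, with all 5 lost within single slides. The causes were not tested. No paired analysis was possible because replicate numbers were given in accession order and pair no samples. Signal over background limits Fcer1a and the normal arrays of Fcer2a.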
